A study of Rattus norvegicus with 7 samples.

Results

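Cdh8, Tubb3 and S100b, 3 neural and glial genes, were followed through RNA sequencing of the adrenal glands of male Sprague-Dawley rats. Their identifiers are ENSRNOG00000056643 (Cdh8), ENSRNOG00000017209 (Tubb3) and ENSRNOG00000001295 (S100b). They are 3 of the 32754 genes in the count table, and all 3 were among the 13892 genes that had at least 10 counts in each of the 7 libraries and were tested. They were chosen from readouts of these same libraries: each stands in the list of genes that the study called between chronic variable stress and control, and Cdh8 stands also in the list for chronic shock. The differences of all 3 genes between chronic variable stress and control, and of Cdh8 between chronic shock and control, are therefore described here without a test.

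The libraries came from whole adrenal glands of 3 groups. The control group (3 libraries) was housed 3 to a cage and was not stressed, though it was weighed every day. Rats under chronic variable stress (CVS, 2 libraries) met a changing series of stressors, among them predator threat, water submersion, cold and warm rooms, restraint, shock, forced swim, disturbed light cycles, isolation and unstable housing. Chronic shock (CS, 2 libraries) combined single housing, a cage floor made of a metal shock grid and unpredictable foot shocks, and these cannot be told apart in that group. The protocols typically ran for 3 weeks from postnatal day 28 to 49, with tissue taken on postnatal day 50 or 51, and each library was made from the pooled RNA of 8 to 9 animals of 1 group. The spread between libraries is thus a spread between pools, and these libraries do not measure that between single animals. The study also measured Cdh8 by quantitative PCR in single animals, as a gene of its stress index, and those values were not used here.

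The adrenal gland holds a steroid-producing cortex around a medulla of chromaffin cells, which derive from the neural crest, are driven by preganglionic sympathetic nerves and are accompanied by glial cells and a few ganglion neurons. Cdh8 encodes a type II classical cadherin, a calcium-dependent adhesion protein best known from the developing brain, where it acts at synaptic contacts. Tubb3 encodes class III beta-tubulin, the beta-tubulin of neuronal microtubules and a common marker of nerve fibres. S100b encodes a small calcium-binding protein that is used as a marker of astrocytes, Schwann cells and satellite glia, and that is also found in adipocytes.

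The 250 bases before each gene's start are shown because S100b was higher under CVS than in control, where Cdh8 and Tubb3 were lower. A link between these sequences and the direction of the differences was not tested. RefSeq places them in the GRCr8 build at chr19:5500216-5500465 on the plus strand (Cdh8), chr19:68365437-68365686 on the plus strand (Tubb3) and chr20:12381082-12381331 on the minus strand (S100b). Each is read in the direction of transcription and ends at the base before the start. Capitals mark the GC box GGGCGG.
Cdh8: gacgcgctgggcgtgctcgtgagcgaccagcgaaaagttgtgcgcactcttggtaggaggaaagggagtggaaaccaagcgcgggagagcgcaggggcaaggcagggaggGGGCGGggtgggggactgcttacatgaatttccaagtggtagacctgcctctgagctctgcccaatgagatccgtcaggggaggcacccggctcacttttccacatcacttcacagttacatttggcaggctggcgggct
Tubb3: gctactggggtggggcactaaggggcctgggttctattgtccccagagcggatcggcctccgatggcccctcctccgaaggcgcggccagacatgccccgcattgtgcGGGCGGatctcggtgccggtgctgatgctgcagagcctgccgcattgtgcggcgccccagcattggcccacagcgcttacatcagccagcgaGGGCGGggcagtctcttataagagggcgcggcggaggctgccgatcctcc
S100b: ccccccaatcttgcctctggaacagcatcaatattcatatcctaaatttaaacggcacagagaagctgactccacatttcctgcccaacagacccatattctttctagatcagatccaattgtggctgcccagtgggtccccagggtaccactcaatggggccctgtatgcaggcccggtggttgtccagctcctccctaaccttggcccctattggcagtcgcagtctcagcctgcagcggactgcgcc
The GC box, the letters that Sp-family factors bind, was found once before Cdh8, beginning 140 bases upstream of the start, and at 2 places before Tubb3, beginning 142 and 50 bases upstream. It was not found before S100b, and 30.5% of the 33469 rat promoters of the same length hold it on either strand. The glucocorticoid receptor half-site TGTTCT (in 17.5% of all promoters), the E-box CACGTG (5.59%) and the TATA box TATAAA (12.9%) were searched on both strands by their exact letters. They did not overlap the GC box, and were found in none of the 3 windows. The Tubb3 window holds TATAAG, a near match that this search did not count. The windows before Cdh8 and Tubb3 held 60.8% and 68% G and C, against 54.8% before S100b and a median of 51.2% over all promoters. RefSeq also has transcripts of Cdh8 and S100b that start farther upstream than the start used here.

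The libraries held 20095746 to 32242123 counts. The library codes share prefixes across groups: DM6 (Control 1, CVS 1 and CS 1), DM8 (Control 2 and CVS 2) and DM10 (Control 3 and CS 2). What the prefixes mark is not given in the sources used here. Gene symbols were at hand only for genes in the study's own lists of changed genes, so the usual markers of glia, ganglion neurons and endothelium could not be looked up, and of those of the cortex and of chromaffin cells only a few could. Cyp11b2, the aldosterone synthase of the cortex, lay between 1679 and 2594 CPM, and Chgb, the chromogranin B of chromaffin granules, between 1049 and 1566 CPM, so both parts of the gland were present in every library. RefSeq gene spans overlap Cdh8 with 2 long noncoding RNA genes and 1 pseudogene, and S100b with Dip2a. Tubb3 shares near-identical stretches with the other beta-tubulin genes, so its level is uncertain by whatever reads the counting placed among them.

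Cdh8 was lower in both stress groups than in control, and lowest under CVS. Its level, in TMM-scaled CPM (counts divided by the scaled library total), was 7.59, 8.62 and 8.01 in the 3 control libraries, 2.61 and 2.92 in the CVS libraries and 3.59 and 3.89 in the CS libraries. The 3 groups did not overlap: all 4 stressed libraries lay far below the lowest control library, and both CVS libraries below both CS libraries. Of all tested genes, 3.62% lay lower in the 4 stressed libraries than in every control library, and 20.5% lay higher under CS than under CVS without overlap. The means were 8.07 ± 0.520 CPM in control (SD, n = 3), 2.77 ± 0.222 under CVS (SD, n = 2) and 3.74 ± 0.212 under CS (SD, n = 2), or 34.3% and 46.3% of the control mean. The depth behind these levels was modest, from 58 counts in CVS 2 (95% exact Poisson interval 44.0 to 75.0, for counting error only) to 256 counts in Control 1. The interval was 66.1 to 102.9 for CVS 1 (83 counts) and 161.2 to 215.8 for Control 3 (187 counts). These intervals are no test of the difference, on which Cdh8 was chosen. On the log2 scale Cdh8 differed from control by -1.55 (SE 0.17) under CVS and by -1.11 (SE 0.16) under CS. In bulk tissue, fewer cells of a type and less RNA per cell cannot be told apart, here or for the other members.

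Tubb3 was lower than control in both CVS libraries, while the CS libraries differed from each other. Its level was 72.2, 68.0 and 68.5 CPM in control, 39.9 and 40.9 CPM under CVS, and 42.2 and 65.5 CPM under CS. CS 1 thus lay beside the CVS libraries and CS 2 just under the lowest control library, so that the CS mean of 53.9 ± 16.5 CPM (SD, n = 2) describes neither pool. The control mean was 69.6 ± 2.30 CPM (SD, n = 3) and the CVS mean 40.4 ± 0.752 CPM (SD, n = 2), which is 58.1% of control. The counts were high, from 812 in CVS 2 to 2435 in Control 1, and those of CS 1 and CS 2 were 1319 and 1670. The gap between CS 1 and CS 2 was 0.63 on the log2 scale, against a median gap of 0.17 over all tested genes, and 7% of tested genes had a wider one. The 2 CVS libraries, by contrast, differed by 0.04, and 86.3% of tested genes had a wider gap there. On the log2 scale Tubb3 differed from control by -0.78 (SE 0.08) under CVS.

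The difference of Tubb3 between CS and control was not used in choosing it, although the control libraries are those of the CVS comparison that was. It was -0.37 on the log2 scale (SE 0.17, 95% interval -0.75 to 0.01), and it did not pass the quasi-likelihood test of edgeR, with adjustment by Benjamini-Hochberg over all tested genes (adjusted p = 0.607, and 0.0760 to 0.881 over the alternatives). It rested on 1 pool: without CS 1 the difference was -0.09, and without CS 2 it was -0.73.

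S100b went the other way and was higher under CVS than in control. Its level was 17.7, 14.6 and 17.6 CPM in control, 26.8 and 29.5 CPM under CVS, and 19.8 and 17.9 CPM under CS. Both CVS libraries lay above all others, while CS 2 lay just above the highest control library. The means were 16.6 ± 1.76 CPM in control (SD, n = 3), 28.2 ± 1.89 CPM under CVS (SD, n = 2) and 18.9 ± 1.33 CPM under CS (SD, n = 2), or 170% and 114% of the control mean. Between 355 counts (Control 2) and 853 counts (CVS 1) lay behind each value. On the log2 scale S100b differed from control by 0.76 (SE 0.12) under CVS.

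Between CS and control, a difference not used in choosing S100b but sharing its control libraries, S100b differed by 0.18 on the log2 scale (SE 0.13, 95% interval -0.11 to 0.48). This did not pass the same edgeR test (adjusted p = 0.780, and 0.366 to 0.989 over the alternatives). Its size depended on single libraries: it was 0.10 without Control 2, 0.11 without CS 1 and 0.25 without CS 2, and 0.10 with the library code prefix as a term.

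**Figure D1:**
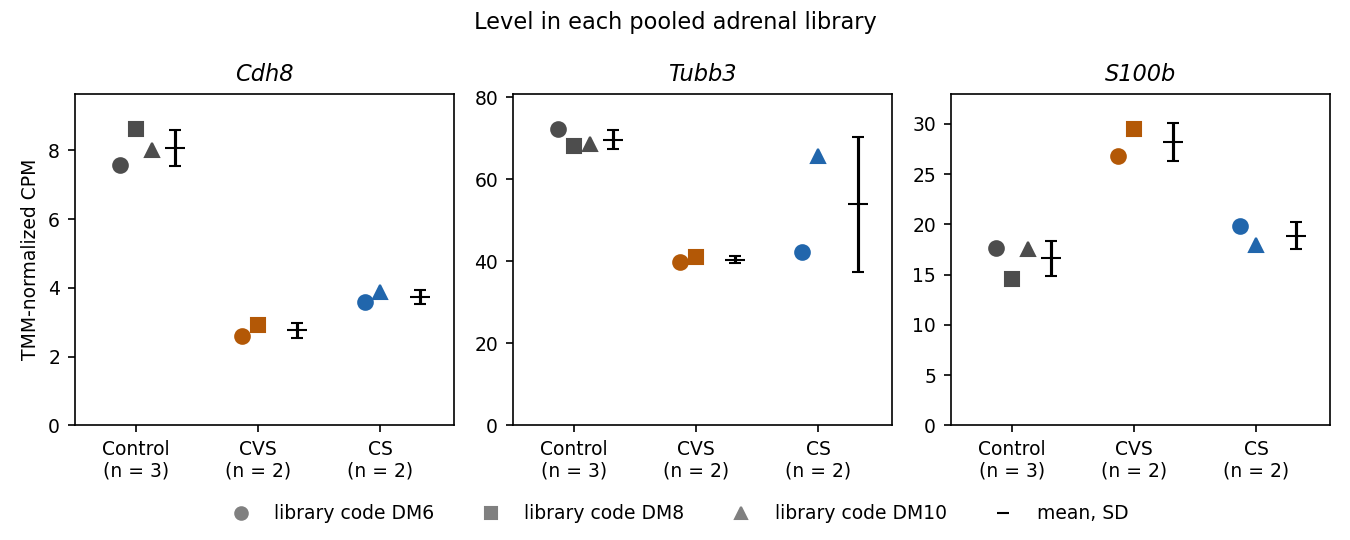
TMM-normalized CPM (linear axis from 0) of Cdh8, Tubb3 and S100b in each library of control (n = 3), CVS (n = 2) and CS (n = 2). Marker shapes give the library code prefix (DM6, DM8, DM10) and bars the mean and SD. The mean of Cdh8 is 8.07 CPM in control, 2.77 under CVS and 3.74 under CS, the CS libraries of Tubb3 lie apart at 42.2 and 65.5 CPM, and S100b is highest under CVS at 26.8 and 29.5 CPM.

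The order of the group levels was control, CS, CVS for Cdh8 and Tubb3 and the reverse, CVS, CS, control, for S100b. That CVS lay farthest from control follows in part from the choice of the genes. Each stands in the study's list for CVS, and Tubb3 and S100b do not stand in its list for CS. The groups next to each other in that order differed to very different degrees. For Tubb3 the lowest control library and the highest CS library were 68.0 and 65.5 CPM, and for S100b the lowest CS library and the highest control library were 17.9 and 17.7 CPM, both within the spread of their groups. For Cdh8 the corresponding control and CS levels were 7.59 and 3.89 CPM, well beyond that spread.

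The share of all tested genes that behaved in the same way gives the background for these counts. Cdh8 and Tubb3 lay lower in both CVS libraries than in all control libraries, as did 10.9% of tested genes, and S100b lay higher, as did 11.3%. In CS, Cdh8 and Tubb3 lay lower than every control library (11.9% of tested genes did) and S100b higher (12.9%). Taking the 4 stressed libraries together, 3.62% of tested genes lay lower than all 3 control libraries and 3.75% higher. The members were chosen for differing between CVS and control, and Cdh8 also between CS and control. Their lack of overlap in those contrasts was thus all but fixed by the choice, and these shares are no test of it. Between CS and control, edgeR with a threshold of 0.05 on the adjusted p called neither Tubb3 nor S100b, and 0.209% of all tested genes. With the replicate number as a block, or by DESeq2's Wald test, Tubb3 and S100b were again not called, while 3.01% and 1.38% of all tested genes were.

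**Figure D2:**
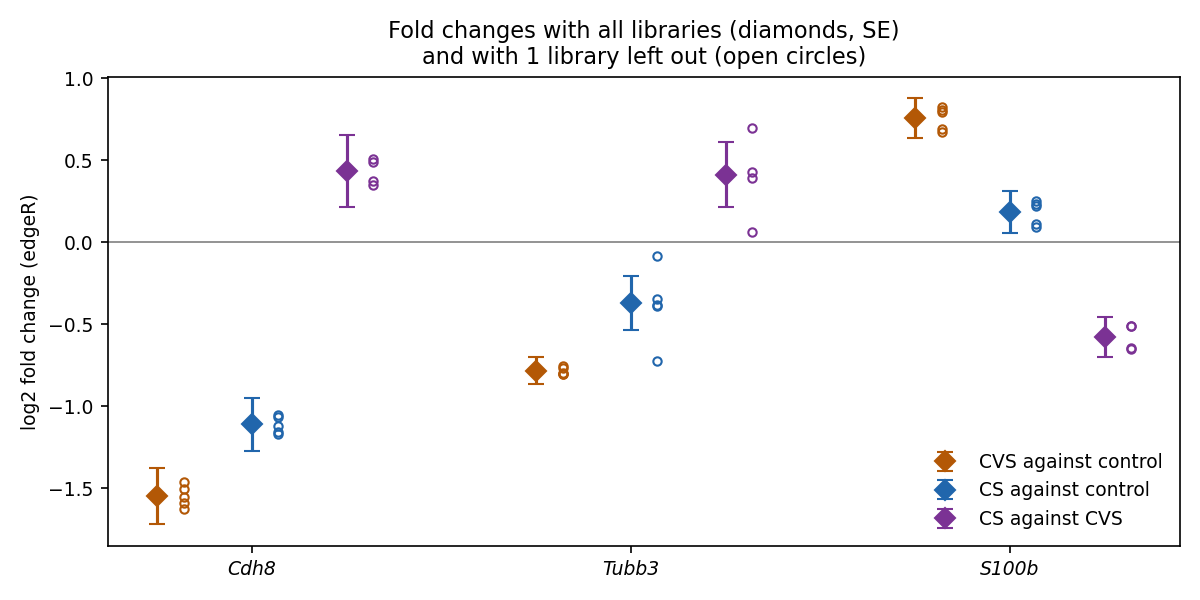
Log2 fold changes from edgeR (diamonds, bars 1 SE) for Cdh8, Tubb3 and S100b in the 3 comparisons. Open circles give the values with 1 library left out. Cdh8 is at -1.55 (CVS against control), -1.11 (CS against control) and 0.43 (CS against CVS), Tubb3 at -0.78, -0.37 and 0.41, and S100b at 0.76, 0.18 and -0.58.

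The direct comparison of CS with CVS asked whether the genes separated the stress protocols from each other. It played no part in choosing the members, but its CVS libraries did. S100b was lower under CS than under CVS by 0.58 on the log2 scale, a fold of 0.671 (log2 difference -0.58, SE 0.12, 95% interval -0.87 to -0.29, not adjusted for the number of genes). Across all tested genes it did not pass edgeR's test (adjusted p = 0.638, and 0.0101 to 0.996 over the alternatives). With the replicate number as a block, which leaves 1 residual degree of freedom, the difference was -0.57 and passed (edgeR adjusted p = 0.0193, in a fit that called 2.86% of all tested genes). That block pairs CS 2 with CVS 2, whose library code prefixes differ (DM10 and DM8). In a fit of all 7 libraries with the same block, added after seeing the data, the S100b difference was -0.57. There it missed the threshold (edgeR adjusted p = 0.0517). Without the filter on low counts it was again -0.57 and passed (edgeR adjusted p = 0.0101, where 1.34% of 22070 genes were called), while DESeq2's Wald test gave an adjusted p of 0.175.

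Cdh8 and Tubb3 were both higher under CS than under CVS in these libraries, without passing the test. The difference of Cdh8 was 0.43 (SE 0.22, 95% interval -0.09 to 0.96), with an edgeR adjusted p of 0.689 and 0.252 to 1.00 over the alternatives. That of Tubb3 was 0.41 (SE 0.20, 95% interval -0.07 to 0.89), with an edgeR adjusted p of 0.689 and 0.0747 to 0.996 over the alternatives. Without CS 1 the Tubb3 difference was 0.70 (edgeR adjusted p = 0.0885), and without CS 2 it was 0.06. The CS and CVS libraries of all 3 members did not overlap. With 2 libraries against 2, 20.5% of all tested genes lay higher under CS without overlap, as Cdh8 and Tubb3 did, and 19.6% lower, as S100b did. The test called 0 of 3 members and 0% of the 13892 tested genes in this comparison. Over all tested genes, 1020 had an unadjusted p under 0.05, and DESeq2 called 0.274%.

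Within the library code prefixes, each stressed library can be set against the control library with the same code. For Cdh8 the log2 ratios to control were -1.54 (DM6) and -1.56 (DM8) for CVS, and -1.08 (DM6) and -1.04 (DM10) for CS. These 4 ratios lay close to the fitted differences and hardly varied between codes. Both DM6 ratios share Control 1 as their base, and the stressed libraries held only 58 to 112 counts of Cdh8. Their closeness is therefore no measure of precision. For Tubb3 they were -0.86 (DM6) and -0.73 (DM8) for CVS, and -0.77 (DM6) and -0.06 (DM10) for CS. The CS pools therefore differed for Tubb3 also when each was set against its own control. For S100b they were 0.60 (DM6) and 1.02 (DM8) for CVS, and 0.16 (DM6) and 0.03 (DM10) for CS. CS and CVS share only the DM6 code, within which CS 1 differed from CVS 1 by 0.46 for Cdh8, 0.08 for Tubb3 and -0.44 for S100b.

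**Figure D3:**
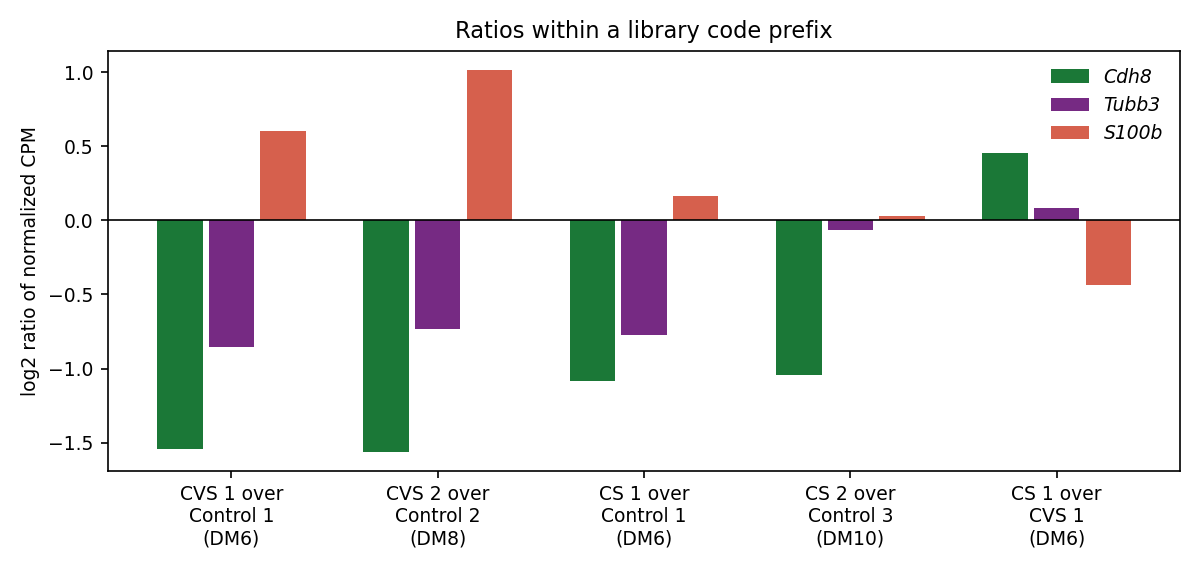
Log2 ratio of each stressed library to the control library of the same code prefix, and of CS 1 to CVS 1 (vertical axis), for Cdh8, Tubb3 and S100b. The last set of bars gives CS 1 over CVS 1, at 0.46 for Cdh8, 0.08 for Tubb3 and -0.44 for S100b. CVS and CS ratios of Cdh8 lie at -1.54 and -1.56 and at -1.08 and -1.04, those of Tubb3 at -0.86 and -0.73 and at -0.77 and -0.06, and those of S100b at 0.60 and 1.02 and at 0.16 and 0.03.

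Across the 7 libraries, Pearson's r between the log2 CPM of Cdh8 and Tubb3 was 0.878, between Cdh8 and S100b -0.847 and between Tubb3 and S100b -0.849. These values describe 7 libraries that fall into 3 groups and share their depth and scaling, and the genes were chosen for differing between those groups. The genes with a symbol at hand whose levels followed each member most closely all came from the study's lists of changed genes.

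For Cdh8 they were Cdh2 (r = 0.983, n = 7), Amd1 (0.982), Slc9a3 (0.982), Cd36 (0.980) and Capn8 (0.964). Cdh2 encodes N-cadherin, a type I classical cadherin of neurons, endocrine and many other cells. Its level was 63.1, 62.3 and 61.1 CPM in control, 46.6 and 48.1 CPM under CVS and 53.1 and 52.6 CPM under CS. The order of these groups follows from picking the gene for its likeness to Cdh8, while its range was much narrower. Amd1 encodes the enzyme that makes the aminopropyl donor of polyamine synthesis, Slc9a3 a sodium-proton exchanger and Cd36 a fatty acid transporter. Of these, Slc9a3 had the widest range, with CVS libraries at -3.48 and -2.84 on the log2 scale relative to the control mean, where those of Cdh8 were at -1.60 and -1.44. Only 1 tested gene had a higher r with Cdh8 than Cdh2 had.

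For Tubb3 they were Igfbp2 (r = 0.972, n = 7), Myl9 (0.972), Apoc4 (0.944), Scgb1c1 (0.929) and Npas2 (0.929). Igfbp2 encodes a protein that binds insulin-like growth factors, Myl9 a myosin light chain of smooth muscle and Npas2 a transcription factor of the circadian clock. In each of these genes, which were picked for likeness to Tubb3, CS 2 lay above CS 1. Against the control mean, CS 1 and CS 2 lay at -0.72 and -0.09 on the log2 scale for Tubb3, at -0.38 and -0.12 for Myl9 and at -0.84 and -0.46 for Npas2.

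For S100b they were Wls (r = 0.968, n = 7), Nnt (0.940), Abi3bp (0.936), Smoc1 (0.933) and Pdyn (0.932). Wls encodes the carrier that brings Wnt proteins to the cell surface, Nnt a mitochondrial transhydrogenase that makes NADPH, and Pdyn the precursor of the dynorphin opioid peptides. In both CVS libraries S100b lay farther above the control mean than any of these 5. Relative to the control mean, S100b lay at 0.70 and 0.83 on the log2 scale in CVS 1 and CVS 2, Wls at 0.25 and 0.33, and Pdyn at 0.38 and 0.62. Of all tested genes, 2 had a higher r with S100b than Wls had.

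**Figure D4:**
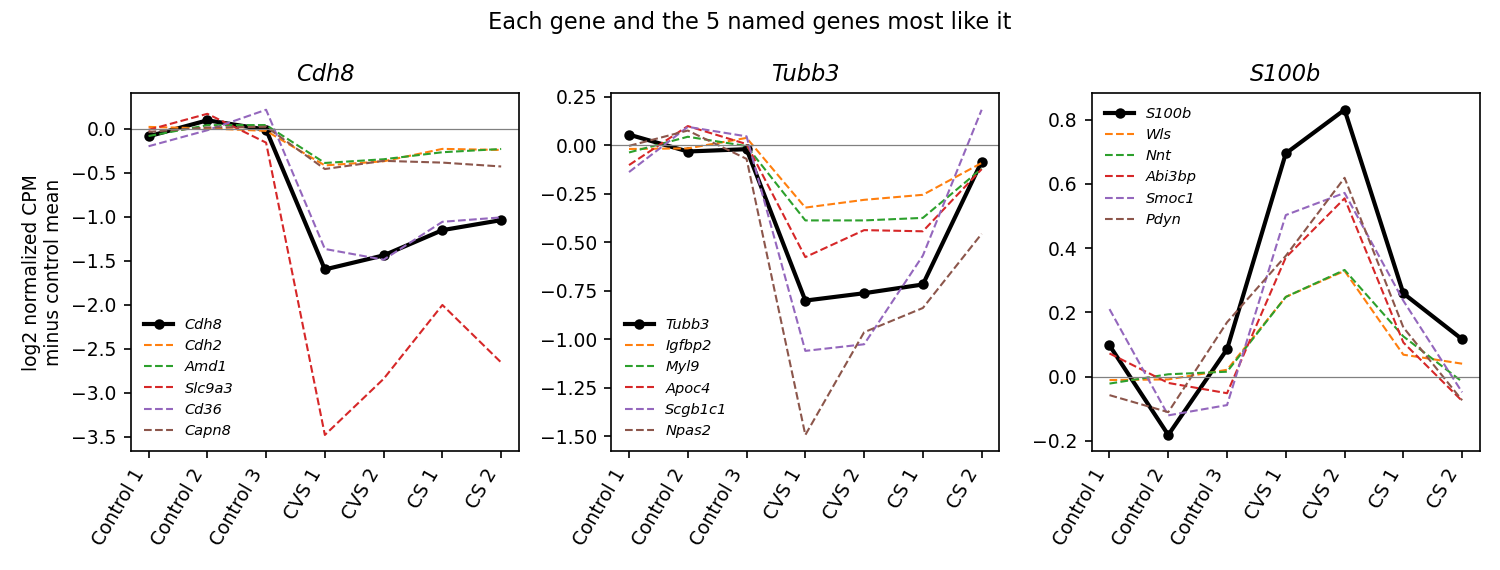
Log2 CPM relative to the control mean (vertical axis) in the 7 libraries for Cdh8, Tubb3, S100b and the 5 genes most like each among those with a symbol. The Cdh8 panel lies below 0 in all 4 stressed libraries, the Tubb3 panel separates CS 1 (-0.72 for Tubb3) from CS 2 (-0.09), and the S100b panel peaks in the CVS libraries (0.70 and 0.83 for S100b).

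The families and cell types to which the 3 genes belong could be followed only in small part, since 17 of 155 listed symbols matched a gene in the table, each through the study's lists of changed genes. Cdh8 was the only match among 12 type II cadherins, Tubb3 among 8 beta-tubulins and S100b among 14 S100 genes, and no catenin of 7 could be matched. Cdh2 was the only match among 5 type I cadherins. It was lower under CVS than in control by a log2 difference of -0.39 (SE 0.08), and under CS by -0.24 (SE 0.08). Map2, a microtubule-associated protein of neuronal dendrites, was the only match among 15 genes of the neuronal cytoskeleton. Its level was 53.5, 71.1 and 64.8 CPM in control, 87.3 and 117.1 CPM under CVS and 69.2 and 75.2 CPM under CS. Map2 was thus highest in the CVS libraries, where Tubb3 was lowest, and its log2 difference between CVS and control was 0.69 (SE 0.15). Neither Cdh2 (edgeR adjusted p = 0.199) nor Map2 (edgeR adjusted p = 0.256) was called between CVS and control, a contrast on which the study had picked both.

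Of 11 adipocyte markers 6 were matched, and 2 of the 6, Adipoq and Retn, rose between control and CS by edgeR's test (log2 differences 1.31 and 1.56, adjusted p = 0.0311 and 0.0412). That test called 0.209% of all tested genes. The study had picked all 6 markers in its comparison of CS with control on the same libraries, so these calls are not independent evidence of their direction. The summed level of the 6 markers was 32.6 to 50.0 CPM in control, 58.1 to 61.4 CPM under CVS and 88.9 to 103.1 CPM under CS, with none at 0 in any library. The adipocyte sum was highest under CS, and S100b, which adipocytes also express, was highest under CVS. That contrast follows in part from how the genes could be named. The 6 markers stand only in the study's list for CS, and S100b only in its list for CVS. In both CVS libraries the sum also lay above every control library. The part of adipocytes in the S100b values was not tested. Mrc1, a macrophage receptor and the only match of 8 leukocyte markers, differed by 0.48 on the log2 scale between CVS and control (edgeR adjusted p = 0.174), and Tagln, a smooth muscle protein and the only match of 8 stromal markers, by -0.55 (edgeR adjusted p = 0.167). Between CS and control Mrc1 differed by 0.18 (edgeR adjusted p = 0.637) and Tagln by -0.04 (edgeR adjusted p = 0.966). Chgb, the only match of 20 chromaffin markers, averaged 1163 CPM in control, 1122 CPM under CVS and 1533 CPM under CS. Of 14 cortex markers 3 were matched. Cyp11b2 averaged 1900, 2526 and 2460 CPM in control, CVS and CS, and Scarb1, the receptor that takes up cholesterol from lipoproteins, 2630, 3230 and 3929 CPM. Nr0b1, a nuclear receptor that represses steroid synthesis, went the other way, with log2 differences from control of -0.72 under CVS (edgeR adjusted p = 0.101) and -0.36 under CS (edgeR adjusted p = 0.433). Mrc1, Tagln, Nr0b1 and Cyp11b2 had been picked by the study between CVS and control, and Chgb and Scarb1 between CS and control. Their values in those contrasts are not independent evidence either. In the contrast on which each was picked, edgeR called neither Cyp11b2 (adjusted p = 0.371), Chgb (adjusted p = 0.214) nor Scarb1 (adjusted p = 0.116). The part of these markers in the values of the 3 genes was not tested.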

How the data were processed

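Poly(A)-selected, strand-marking libraries were sequenced as single reads of 50 bases. Alignment by the authors used Rsubread and the Rnor_6.0 genome, and featureCounts gave a count for each Ensembl gene. The deposited values are raw counts, with no normalization. The strand setting, the handling of reads with several matches and the tool versions are not given in the sources used here.

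Counts were tested with edgeR 4.0.16 (R 4.3.3) by the quasi-likelihood test with TMM scaling, after the study's filter of at least 10 counts in all 7 libraries, with separate fits for CVS against control (3 and 2 libraries), CS against control and CS against CVS. p-values were adjusted by Benjamini-Hochberg over all 13892 tested genes. SEs were taken from the fold change and the F statistic. The p-values measure the spread between pools. DESeq2 1.42.0 with its size factors or Wald test, no filter, edgeR's newer estimation, a replicate block, a library prefix term and leaving out each library were alternatives. The edgeR step was tested on simulated data.

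Replicate numbers were taken to pair libraries, since the deviations from the group means correlated between same-numbered libraries of different groups in all 6 pairs (0.219 to 0.471). In groups of 2 these deviations mirror each other. The labels do not say what the numbers mark. For replicate 2 they cut across the library code prefixes: CS 2 has DM10, while Control 2 and CVS 2 have DM8. The correlation of CS 2 was 0.219 with Control 2, the lowest of the 6, and 0.351 with CVS 2. Whether CS 2 went better with the control library of its own prefix was not tested.

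The members and all gene lists were chosen with earlier results of these data known. Named genes were the members, the matched genes of the lists and, for each member, the 5 named genes with the highest Pearson r. Symbols were paired with IDs only through the identifier columns of the study's supplementary lists (260 usable names). No values of those lists were used. Promoters came from RefSeq (GRCr8), matched by symbol for 3 of 3 members. 2 genes of the lists are not reported here and were passed over in this ranking.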

Additional observations from a re-analysis of the deposited data

How the results depend on the processing

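None of the 120 alternative values of the 9 fold changes changed sign. Of the 5 differences that were tested, S100b between CS and CVS passed the threshold without the filter (-0.57) and with the replicate block (-0.57), and no other crossed it under any alternative, the paired fit with the replicate block included. No call is reported for the 4 differences on which the members were chosen. The counts of genes called moved far more. For CVS against control the main count was 13, against 121 by DESeq2's Wald test, 7 with DESeq2's size factors, 151 without the filter, 6 with edgeR's newer estimation, 817 with the replicate block, 817 with the prefix term and 0 to 16 when each library was left out (7 without Control 1, 6 without Control 2, 1 without CVS 1, 16 without CVS 2, and by edgeR 0 without Control 3, with 623 at an unadjusted p under 0.05). For CS against control it was 29, against 192 (DESeq2), 232 (no filter), 418 (replicate block), 527 (prefix term) and 1 to 83 when each library was left out (1 without Control 1 or Control 3, 4 without Control 2 or CS 2, 83 without CS 1). For CS against CVS it was 0, against 38 (DESeq2), 295 (no filter), 397 (replicate block) and 0 to 39 when each library was left out, the 39 being without CS 1. Of the genes tested in the unaltered comparison, 1020 had an unadjusted p under 0.05 by edgeR. The causes were not tested. Fits of all 7 libraries with the replicate block or the prefix term were chosen after seeing the data. They called 122 and 257 genes for CVS, 361 and 580 for CS and 197 and 111 for CS against CVS. The prefix term could not be fitted to the 4 libraries of CS against CVS, for lack of residual degrees of freedom. The fits of single comparisons with the block or prefix term have 1, and those of all 7 libraries have 2. Where leaving out a library left 1 in a group, it was assumed to vary like the others. With 58 to 256 counts a library, counting error was widest for Cdh8.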

Other observations

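A few other genes known from nerve endings, glia or neural matrix were in the study's lists. Those given here were picked after their values were seen, are not a full set of such genes in the lists, and have no test. All of them were lower under CVS than in control, whereas Map2 and Pdyn, described above, were higher. Slc6a2, the noradrenaline transporter of sympathetic and chromaffin cells, lay at 35.3, 37.5 and 37.8 CPM in control, 18.4 and 21.9 CPM under CVS and 29.1 and 25.4 CPM under CS, the order of groups that Cdh8 had. Its log2 difference from control was -0.88 (SE 0.11) under CVS and -0.44 under CS. Slc1a3, the glutamate transporter of glia, lay at 40.6, 38.2 and 39.4 CPM in control, 24.5 and 15.7 CPM under CVS and 30.6 and 25.5 CPM under CS. Slc1a3 was thus lowest in the CVS libraries, where S100b, also known from glia, was highest. Bcan, the matrix proteoglycan brevican, lay at 8.09, 9.20 and 10.02 CPM in control, 5.28 and 5.34 CPM under CVS and 7.49 and 9.30 CPM under CS, where CS 2 fell among the control libraries.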
